A study of Mus musculus with 24 samples.

Results

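Aminoacyl-tRNA synthetases are the enzymes that join each amino acid to its transfer RNA (tRNA), and 36 of their genes were followed in ribosome profiling data from mouse liver. They comprised 20 genes for the cytosolic enzymes and 16 for the mitochondrial ones, chosen by gene symbol from a list of names, out of 22429 genes in the deposited table. All 36 were found, Mars under its newer symbol Mars1, and all 36 were among the 12211 genes that passed the filter on low counts. Their levels were footprints, the mRNA fragments that ribosomes protect from RNase I in a lysate held with cycloheximide. A footprint level combines the amount of an mRNA with how densely ribosomes occupy it.

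The livers came from 24 male F1 hybrids of C57BL6J and FVBN, in 6 groups of 4. Mutants had the genotype Ercc1 d/-, with 1 truncated and 1 null allele of a DNA repair gene in every tissue, and they age early. They were taken at 16 weeks under 30% dietary restriction (DR), at 16 weeks after feeding ad libitum (AL), and at 7 weeks after feeding ad libitum. Wild types, Ercc1 +/+, were taken at 104 weeks after feeding ad libitum, at 16 weeks under 30% dietary restriction, and at 16 weeks after feeding ad libitum. Fed mice are those fed ad libitum, of 16 weeks where no age is given, and old mice are those of 104 weeks. Restriction began at 7 weeks of age and reached its full size at 9 weeks, all mice ate AIN93G pellets, and food was withheld on the day of collection. No restricted mouse of another age and no wild type of 7 weeks was in these data. The labels number the livers of a group and name no shared animal, and each was taken as 1 animal.

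Cytosolic synthetases charge the tRNAs that decode nuclear genes. In mammals several of them sit together in a multisynthetase complex on the scaffolds Aimp1, Aimp2 and Eef1e1, and the others act free of it. The mitochondrial enzymes are encoded in the nucleus, imported, and charge the tRNAs that decode the few respiratory chain proteins made inside mitochondria. Gars and Kars each encode both forms of their enzyme, and mitochondrial glutaminyl-tRNA is made by an amidotransferase, so those amino acids have no separate mitochondrial gene. When amino acids run short, uncharged tRNA activates the kinase GCN2 (gene Eif2ak4), and the transcription factor ATF4 then raises many cytosolic synthetase genes along with genes of amino acid synthesis. ATF4 binds with C/EBP partners to a composite site whose letters are close to TGATGNAA.

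Promoters that hold this motif are shown because ATF4 is the factor best known to act on cytosolic synthetase genes. RefSeq (GRCm38.p6) promoters, 250 bases before to 50 after the start of a transcript, were at hand for 13 cytosolic genes and for 14 mitochondrial genes with 15 promoters. TGATGNAA, searched on both strands, was present in 5 of the 13 cytosolic promoters (38.46%) and in 0 of the 15 mitochondrial ones, against 3.97% of all 32851 promoters of that length. All 5 belong to the 13 cytosolic genes listed from general knowledge as reported ATF4 targets, of which 8 had a promoter. The sequences run 5′ to 3′ on the gene's strand, with the motif in capitals.
Yars, tyrosyl-tRNA synthetase, chr4:129189653-129189952, plus strand: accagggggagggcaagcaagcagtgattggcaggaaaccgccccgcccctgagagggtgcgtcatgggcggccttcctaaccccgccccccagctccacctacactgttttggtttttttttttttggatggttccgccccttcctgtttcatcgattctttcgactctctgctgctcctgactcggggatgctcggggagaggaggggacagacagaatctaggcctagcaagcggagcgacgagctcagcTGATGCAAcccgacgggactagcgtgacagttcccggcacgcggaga
Gars, glycyl-tRNA synthetase, chr6:55037751-55038050, plus strand: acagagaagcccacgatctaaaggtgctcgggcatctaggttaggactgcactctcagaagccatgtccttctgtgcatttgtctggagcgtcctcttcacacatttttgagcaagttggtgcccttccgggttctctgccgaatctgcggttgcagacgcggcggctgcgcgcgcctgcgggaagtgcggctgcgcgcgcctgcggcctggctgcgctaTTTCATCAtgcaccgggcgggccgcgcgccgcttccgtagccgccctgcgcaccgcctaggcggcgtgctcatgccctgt
Aars, alanyl-tRNA synthetase, chr8:111033592-111033891, plus strand: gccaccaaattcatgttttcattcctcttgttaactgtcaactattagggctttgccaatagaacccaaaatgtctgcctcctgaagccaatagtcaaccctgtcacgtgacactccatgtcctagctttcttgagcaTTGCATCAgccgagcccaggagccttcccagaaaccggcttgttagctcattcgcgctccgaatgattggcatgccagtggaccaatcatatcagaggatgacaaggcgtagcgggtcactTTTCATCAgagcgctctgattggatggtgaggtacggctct
Iars, isoleucyl-tRNA synthetase, chr13:49681880-49682179, plus strand: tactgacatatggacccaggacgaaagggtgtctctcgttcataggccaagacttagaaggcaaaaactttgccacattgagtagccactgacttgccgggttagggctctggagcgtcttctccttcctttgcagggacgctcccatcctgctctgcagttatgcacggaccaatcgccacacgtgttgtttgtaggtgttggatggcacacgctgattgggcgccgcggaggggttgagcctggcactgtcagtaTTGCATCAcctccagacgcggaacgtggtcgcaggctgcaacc
Tars, threonyl-tRNA synthetase, chr15:11399609-11399908, minus strand: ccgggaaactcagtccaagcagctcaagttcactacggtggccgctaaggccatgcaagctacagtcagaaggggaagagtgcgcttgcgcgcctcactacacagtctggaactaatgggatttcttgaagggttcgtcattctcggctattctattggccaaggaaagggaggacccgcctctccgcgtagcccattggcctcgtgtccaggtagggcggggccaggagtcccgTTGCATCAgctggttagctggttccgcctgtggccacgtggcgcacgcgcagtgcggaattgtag
In Yars the motif read TGATGCAA on the gene's strand. In the other 4 it lay on the opposite strand, as TTGCATCA in Iars and Tars, TTTCATCA in Gars, and both in Aars. A further pair of motifs was searched on both strands: the E box CACGTG, a site of MYC and related factors, and the palindromic site of NRF1, a factor of mitochondrial genes. The E box was in 4 of 13 cytosolic promoters (Farsb, Aars, Iars and Tars) and in 1 of 15 mitochondrial ones (Ears2), against 7.15% of all promoters. The NRF1 motif was in none of either, against 0.97% of all. These are matches of letters and do not show that a factor was bound.

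Libraries held 13366558 to 27084259 counts in total, and the 36 genes together took 15166 to 43811 of them. A cytosolic gene had between 161 and 7750 counts in a library, a mitochondrial gene between 11 and 1336, so the mitochondrial values carry more counting error. Ercc1 itself went with the labels, at 0.564 ± 0.232 CPM (counts scaled to a common library size) in fed mutants and 2.72 ± 0.727 CPM in fed wild types (SD, n = 4 each). The 7 hepatocyte markers were present in every group, so the samples matched their label of liver. No library was left out of the main results.

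Footprints on the cytosolic synthetases were more abundant in mutants and in old wild types than in young fed wild types. Summed mitochondrial levels of fed mutants, of restricted mutants and of old wild types overlapped those of fed wild types, at 164.9 to 180.4 CPM. Those of 7-week mutants, at 185.4 to 192.7 CPM, lay above that range. Those of restricted wild types, at 140.2 to 164.6 CPM, lay below it, the highest only just. Summed over the 20 cytosolic genes, the level was 1394, 1306, 1411 and 1401 CPM in fed mutants, against 1151, 1179, 1136 and 1089 CPM in fed wild types, so that the groups did not overlap. Old wild types lay higher still, at 1436 to 1695 CPM. Their mean was 1539 ± 115 CPM, against 1378 ± 48.4 CPM in fed mutants, 1336 ± 52.4 CPM in restricted mutants and 1289 ± 34.4 CPM in 7-week mutants. Both wild-type groups of 16 weeks were lowest, with 1143 ± 104 CPM in restricted and 1139 ± 37.7 CPM in fed animals (SD, n = 4 each). The highest library of restricted wild types, at 1269 CPM, reached into the range of 7-week mutants, whose lowest was 1263 CPM.

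**Figure D1:**
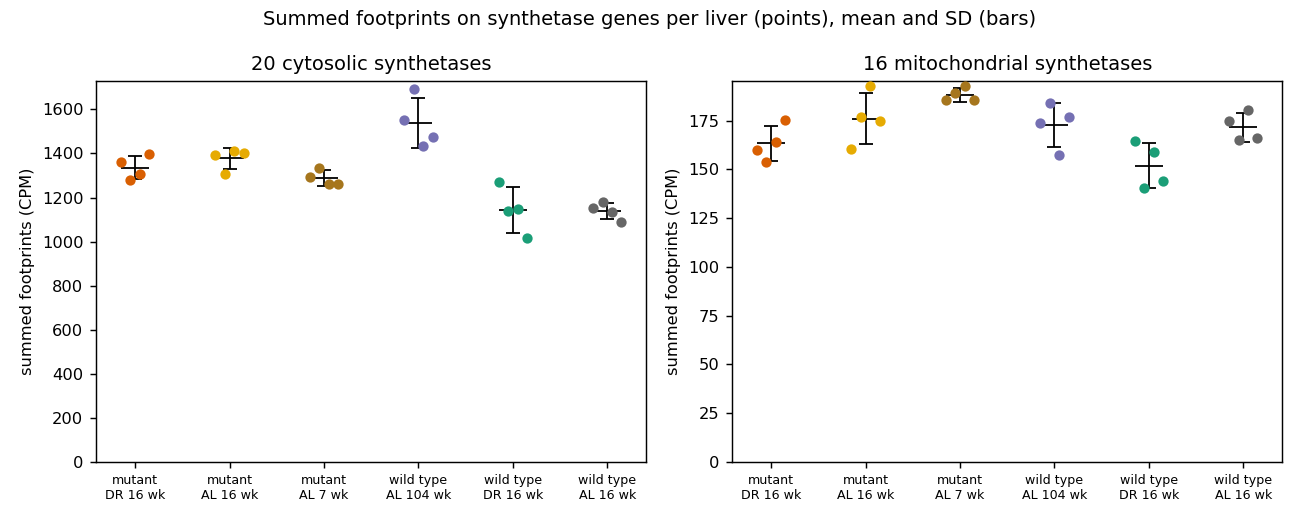
Summed footprints (CPM, linear axis from 0) on the 20 cytosolic genes (left) and the 16 mitochondrial genes (right), 1 point per liver, with the mean and SD of each group as bars. All mutant and old wild-type livers had at least 1263 CPM on the cytosolic genes and all fed wild types of 16 weeks had at most 1179 CPM, while the mitochondrial sums of all groups lay between 140.2 and 192.7 CPM.

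Summed mitochondrial levels followed another order. The highest mean was that of 7-week mutants, 188.2 ± 3.49 CPM, and then came fed mutants at 176.1 ± 13.3 CPM, old wild types at 172.9 ± 11.2 CPM and fed wild types at 171.6 ± 7.40 CPM. Restricted mutants had 163.3 ± 9.13 CPM and restricted wild types 151.9 ± 11.7 CPM (SD, n = 4 each). Neighbours in this order differed by less than the larger of their SDs. The cytosolic sum was 8.90 ± 0.396 times the mitochondrial sum in old wild types, 8.19 ± 0.278 times in restricted mutants, 7.86 ± 0.644 times in fed mutants, 7.53 ± 0.491 times in restricted wild types, 6.85 ± 0.224 times in 7-week mutants and 6.65 ± 0.359 times in fed wild types (SD, n = 4 each). The ratio of 7-week mutants lay within the range of fed wild types, 6.3 to 7.15. A sum is weighted by the most abundant genes, and each gene is therefore tested singly.

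In fed mutants against fed wild types, 8 of 20 cytosolic genes rose and 1 fell, while of 16 mitochondrial genes none rose and 1 fell. Across all genes tested, 10.7% passed an adjusted p of 0.05 in this comparison, 5.69% upward and 5.04% downward (edgeR's quasi-likelihood test with Benjamini-Hochberg adjustment over all genes, as for every adjusted p here). The median log2 change was 0.36 over the cytosolic genes, with 19 of 20 above 0, and 0.045 over the mitochondrial ones, with 10 of 16 above 0. The median over all genes was 0.007.

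Farsa, the catalytic alpha subunit of phenylalanyl-tRNA synthetase, had the strongest rise. Its level was 23.5, 25.4, 30.6 and 24.7 CPM in fed mutants, against 15.3, 17.6, 17.6 and 17.1 CPM in fed wild types. The groups did not overlap, and the log2 change was 0.62 ± 0.13 (SE), with an adjusted p of 0.00285. Farsb, the other subunit of the same enzyme, changed by 0.27 ± 0.15 with an adjusted p of 0.302.

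Of the 5 genes of the multisynthetase complex that rose, Iars, for isoleucine, had 86.7, 62.8, 81.0 and 66.0 CPM in fed mutants, against 58.5, 51.6, 55.1 and 47.3 CPM in fed wild types. Eprs, whose single protein charges both glutamate and proline tRNAs, had 197, 184, 211 and 207 CPM in fed mutants, against 142, 158, 159 and 145 CPM in fed wild types. Lars, the leucine enzyme and a leucine sensor of the mTORC1 pathway, had 48.3, 42.8, 46.4 and 46.8 CPM in fed mutants, against 35.0, 38.1, 35.9 and 31.0 CPM in fed wild types. In each of these every mutant lay above every wild type. Rars, for arginine, had 54.0, 49.3, 51.8 and 48.8 CPM in fed mutants, against 35.6, 37.9, 42.5 and 38.2 CPM in fed wild types. Kars, for lysine, had 56.7, 43.0, 53.9 and 41.4 CPM in fed mutants, against 40.5, 39.5, 37.4 and 31.1 CPM in fed wild types. These 5 rose by 0.39 to 0.48 on the log2 scale, with adjusted p from 0.0189 to 0.0359. All 8 genes of the complex had changes above 0, with a median of 0.39. The 12 free enzymes had 3 rises, 1 fall and a median of 0.32.

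Among the free enzymes, Nars, which charges asparagine tRNA, had 168, 134, 151 and 161 CPM in fed mutants, against 125, 114, 108 and 104 CPM in fed wild types. It rose by 0.44 ± 0.12 (adjusted p = 0.0164), and its groups did not overlap. Aars, the alanine enzyme, had 238, 242, 228 and 276 CPM in fed mutants, against 187, 207, 169 and 178 CPM in fed wild types, a rise of 0.41 ± 0.13 (adjusted p = 0.0425). Both are on the list of reported ATF4 targets. That list of 13 had 5 rises and 1 fall with a median of 0.36, and the other 7 cytosolic genes had 3 rises with a median of 0.34.

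Tars, the threonine enzyme, ran the other way from the rest of the cytosolic group. Its level was 80.1, 78.3, 64.7 and 67.2 CPM in fed mutants, against 100, 119, 108 and 118 CPM in fed wild types. No mutant reached the lowest wild type, and the fall was 0.62 on the log2 scale (SE 0.15, adjusted p = 0.00643). It was the single cytosolic gene with a change below 0. The mitochondrial threonine enzyme Tars2 had a change of 0.41 ± 0.16 (adjusted p = 0.113).

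Fars2, the mitochondrial phenylalanyl-tRNA synthetase, fell most of all 36 genes. It had 7.36, 10.9, 9.52 and 7.82 CPM in fed mutants, against 15.6, 16.1, 16.5 and 16.9 CPM in fed wild types. The wild-type values lay close together and every mutant lay well below them, and the log2 change was -0.87 ± 0.18 (adjusted p = 0.00231). The cytosolic and mitochondrial genes for phenylalanine thus moved in opposite directions in the mutants, Farsa up and Fars2 down. The 15 mitochondrial genes that did not pass had log2 changes from -0.15 to 0.41, and the 11 cytosolic ones from 0.04 to 0.37.

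**Figure D2:**
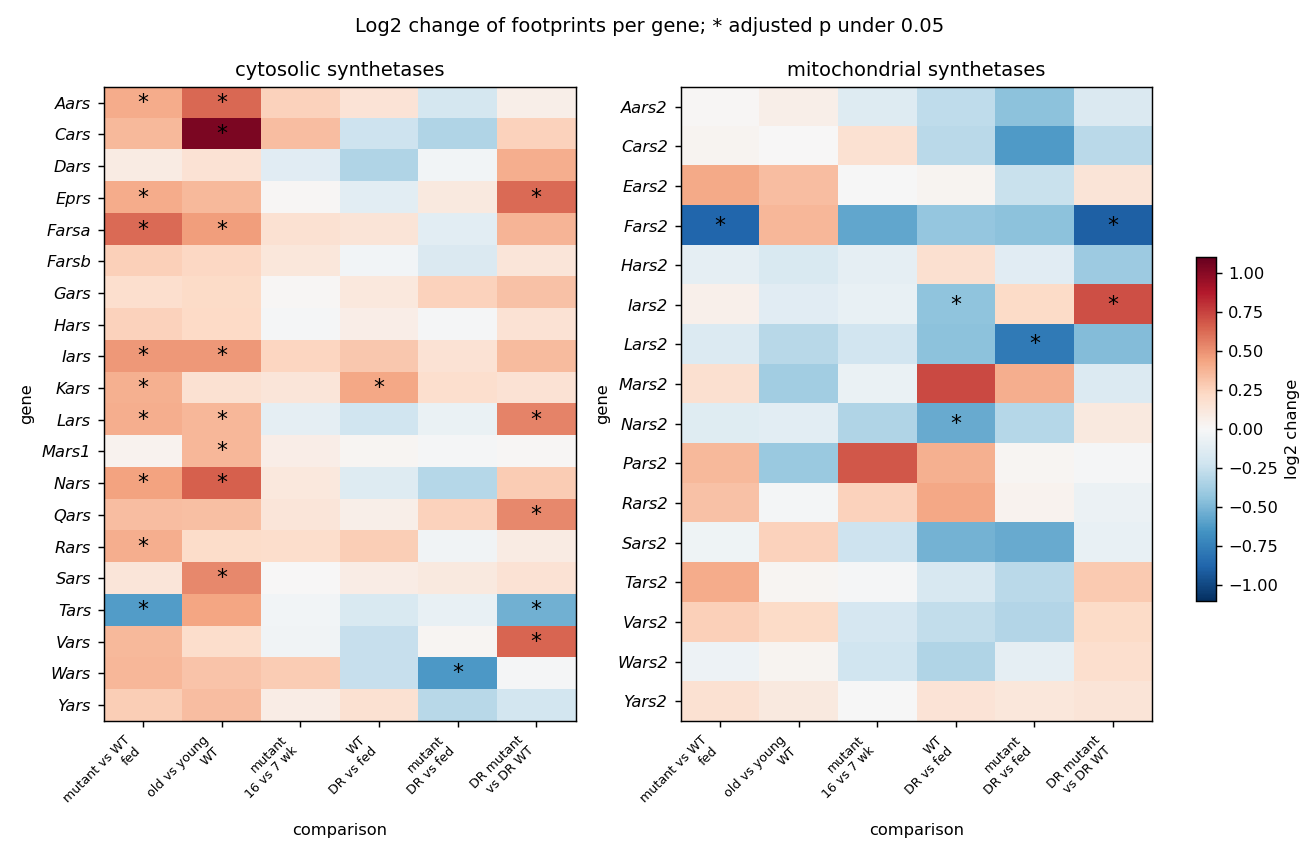
Log2 change of footprints for each of the 20 cytosolic genes (left) and 16 mitochondrial genes (right), in 6 comparisons with the first-named group over the second; red is higher and blue lower, and a star marks an adjusted p under 0.05. The cytosolic columns for fed mutants against fed wild types and for old against young wild types hold 8 starred rises each. In those columns the mitochondrial panel has no starred rise, and the fed mutant column also has 1 starred fall in each panel.

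Not all of these calls had the same footing. Farsa, Tars and Fars2 passed in every one of 15 alternative fits. Without fed mutant replicate 1 or fed wild-type replicate 4, the other 7 rises lost their call (Aars, Eprs, Iars, Kars, Lars, Nars and Rars, adjusted p 0.0583 to 0.148), and the cytosolic count of calls fell to 2. Without fed wild-type replicate 3 it was 4, with Aars, Eprs, Iars, Kars and Nars lost. Without the filter on low counts 3 cytosolic genes were called. The cytosolic median stayed between 0.30 and 0.41 when any 1 library was left out. Every mutant lay above every wild type in 12 cytosolic and 2 mitochondrial genes (10.9% of all genes), and below in 1 of each (11.4% of all genes).

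Signals of other cells moved with the genotype. The 10 macrophage markers summed to 381.2 to 515.4 CPM in fed mutants, against 214.1 to 244.3 CPM in fed wild types. The 7 stellate cell markers summed to 256.5 to 332 CPM in fed mutants, against 148.9 to 202.2 CPM in fed wild types. The 7 hepatocyte markers summed to 104400 to 139000 CPM in fed mutants, against 143100 to 154400 CPM in fed wild types, also with no overlap. Singly, 5 of these 7 had changes below 0 and 2 above, with 1 called, downward. None of these markers was at 0 in either group, and their part in the synthetase levels was not tested. In bulk liver, fewer cells of a type and less RNA per cell cannot be told apart. Interferon response genes were higher too, with 9 of 16 tested called up and a median of 1.15. Wars, the tryptophan enzyme that interferon induces in human and mouse cells, had 31.5, 21.0, 28.3 and 27.5 CPM in fed mutants, against 20.1, 24.8, 20.3 and 18.6 CPM in fed wild types, a log2 change of 0.37 ± 0.20 (adjusted p = 0.255). Its groups overlapped.

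Old wild types against young fed wild types gave 8 rises and no fall among the 20 cytosolic genes, and no call among the 16 mitochondrial ones. Across all genes 9.34% were called, 4.75% upward and 4.59% downward. All 20 cytosolic changes were above 0, with a median of 0.35, and 9 of 16 mitochondrial changes were, with a median of 0.016. The median over all genes was 0.015. No mitochondrial gene was among the calls of DESeq2 either, and 0 of 16 had an unadjusted p under 0.05. The young fed wild types are the same 4 livers that served as controls for the mutants, so both comparisons share their errors.

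Cars, the cysteine enzyme, rose most. It had 34.2, 42.4, 30.0 and 26.1 CPM in old wild types, against 17.7, 15.7, 17.9 and 13.3 CPM in young wild types. Every old liver lay above every young one, and the log2 change was 1.03 ± 0.16 (adjusted p = 8.45e-05). In fed mutants it had 25.8, 18.9, 18.5 and 20.0 CPM, a change of 0.36 ± 0.15 against fed wild types (adjusted p = 0.144).

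Nars had 186, 206, 154 and 166 CPM in old wild types, against 125, 114, 108 and 104 CPM in young wild types. Aars had 274, 322, 258 and 296 CPM in old wild types, against 187, 207, 169 and 178 CPM in young wild types. Sars, which charges serine tRNA and also the selenocysteine tRNA, had 70.9, 78.0, 68.9 and 60.2 CPM in old wild types, against 54.3, 49.7, 41.9 and 47.0 CPM in young wild types. Each separated the age groups in full. The log2 changes were 0.66 ± 0.12 for Nars (adjusted p = 0.000711), 0.63 ± 0.13 for Aars (adjusted p = 0.00255) and 0.53 ± 0.12 for Sars (adjusted p = 0.00438). Sars was at 52.5, 52.0, 51.4 and 55.1 CPM in fed mutants, where its change against fed wild types was 0.13 ± 0.12 (adjusted p = 0.539).

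The other 4 calls were smaller. Farsa had 21.0, 25.6, 22.7 and 23.5 CPM in old wild types, against 15.3, 17.6, 17.6 and 17.1 CPM in young wild types, and rose by 0.46 ± 0.13 (adjusted p = 0.03). Iars had 80.6, 86.2, 61.5 and 68.7 CPM in old wild types, against 58.5, 51.6, 55.1 and 47.3 CPM in young wild types, and rose by 0.48 ± 0.15 (adjusted p = 0.0356). In both genes the age groups did not overlap. Lars had 47.9, 49.2, 42.2 and 41.0 CPM in old wild types, against 35.0, 38.1, 35.9 and 31.0 CPM in young wild types, and rose by 0.36 ± 0.11 (adjusted p = 0.0342). Mars1, for methionine, had 67.4, 80.2, 71.2 and 75.2 CPM in old wild types, against 59.6, 55.9, 58.5 and 54.7 CPM in young wild types, and rose by 0.36 ± 0.12 (adjusted p = 0.0457). Cars, Nars, Aars and Sars passed in all 15 alternative fits. Mars1 lost its call when any 1 of the 8 livers was left out. Without old replicate 2, young replicate 3 or young replicate 4, Farsa, Iars, Lars and Mars1 all lost theirs, which left 4 calls, as did testing without the filter on low counts.

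Tars took opposite directions in the mutant and in the old liver. It had 167, 154, 149 and 131 CPM in old wild types, against 100, 119, 108 and 118 CPM in young wild types. The age groups did not overlap, but the change of 0.43 ± 0.14 missed the threshold (adjusted p = 0.0597). Fars2 had 21.2, 25.8, 15.1 and 21.6 CPM in old wild types, with old replicate 3 below the young values of 15.6 to 16.9 CPM, and a change of 0.36 ± 0.18 (adjusted p = 0.224). Whether old wild types and mutants differed in these genes was not tested.

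**Figure D3:**
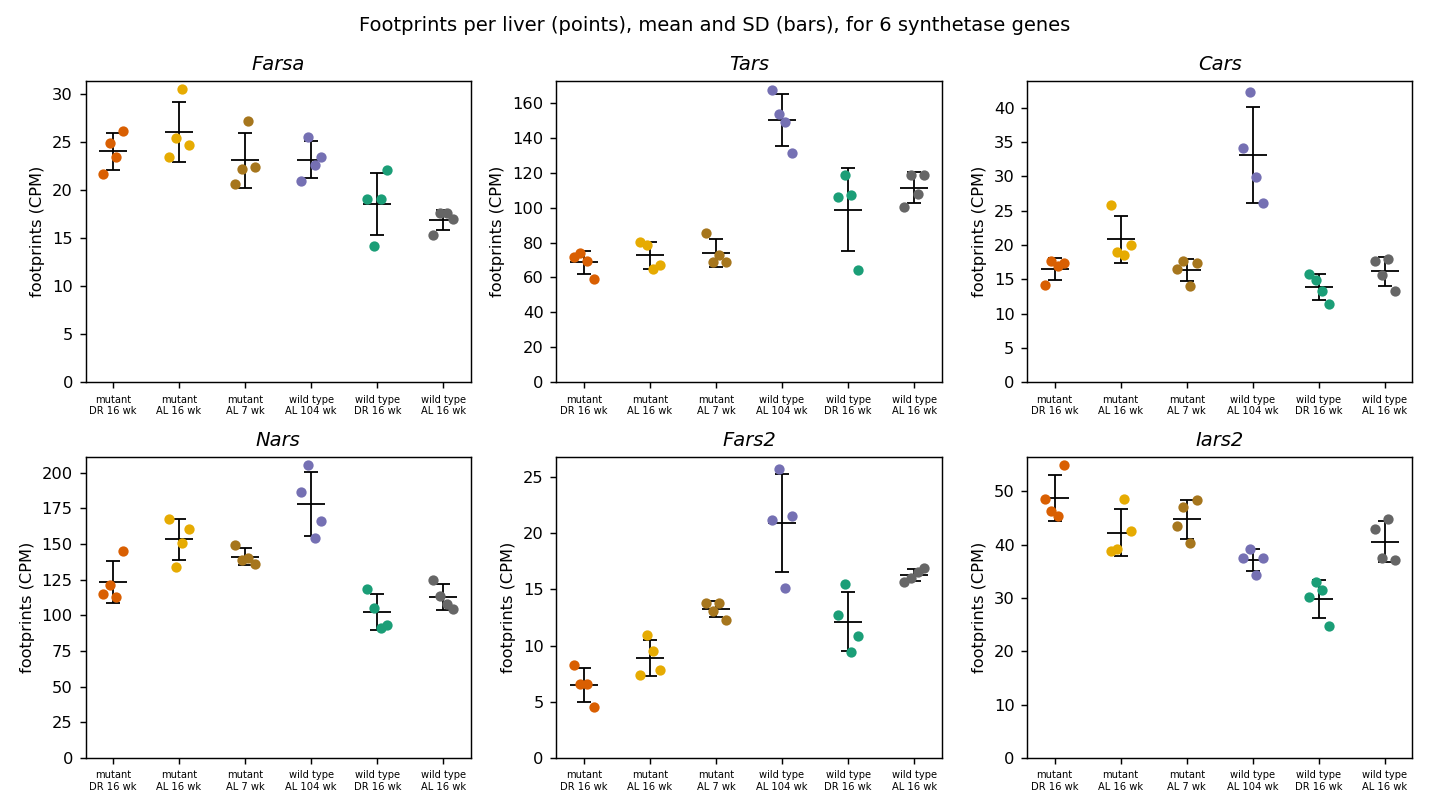
Footprints (CPM, linear axes from 0) on Farsa, Tars, Cars, Nars, Fars2 and Iars2, 1 point per liver, with the mean and SD of each group as bars. Tars is at 59.0 to 85.4 CPM in the 12 mutants and 64.2 to 167 CPM in the 12 wild types, and Cars stands out in the 4 old wild types.

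By list, the 13 reported ATF4 targets had 7 of the 8 rises in old liver, with a median of 0.36, and the other 7 cytosolic genes had 1, with a median of 0.22. The lists were drawn up with earlier results of these data known, so this split is only a description. Within the 13 cytosolic genes whose promoter was at hand, the 5 with the TGATGNAA motif had a median log2 change of 0.43 in old against young liver and 0.27 in mutants against wild types. The 8 without it had 0.34 and 0.30 in the same comparisons. Tars, which has the motif, gave the lowest value of the motif group in mutants, at -0.62. Class I enzymes, which share a Rossmann fold, had 4 rises of 9 in old liver, and class II enzymes, built on an antiparallel sheet, 4 of 10. In the mutants these counts were 3 rises of 9 and 4 of 10 with 1 fall. Eprs, which belongs to both classes, was left out of them.

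In old liver the summed B and plasma cell markers stood at 34.9 to 83.17 CPM, against 1.399 to 4.227 CPM in young liver, and the macrophage markers at 319.6 to 407 CPM, against 214.1 to 244.3 CPM. Stellate cell markers summed to 216.6 to 261 CPM in old livers, against 148.9 to 202.2 CPM in young ones. The 5 endothelial markers summed to 230.9 to 262.8 CPM, against 202.6 to 227.6 CPM, and no single gene of these 2 lists was called. Hepatocyte markers summed to 86460 to 156300 CPM in old livers and 143100 to 154400 CPM in young ones. The part of these in the synthetase levels was not tested. Every old liver was above every young one in 11 of 20 cytosolic genes and 0 of 16 mitochondrial genes (8.64% of all genes), and below in none of either (8.98% of all genes).

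Within the 36 genes, a cytosolic and a mitochondrial gene could be paired for 13 amino acids. In fed mutants against fed wild types, the cytosolic gene had the higher log2 change in 11 of 13 pairs, with a median difference of 0.33. The exceptions were Tars with Tars2, and Mars1 with Mars2. In old against young wild types it did so in 12 of 13 pairs, with a median difference of 0.41 and Vars with Vars2 as the exception. The widest of these gaps was Cars at 1.03 against Cars2 at 0.01. Both comparisons use the same young livers, so the counts do not stand independently of each other.

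**Figure D4:**
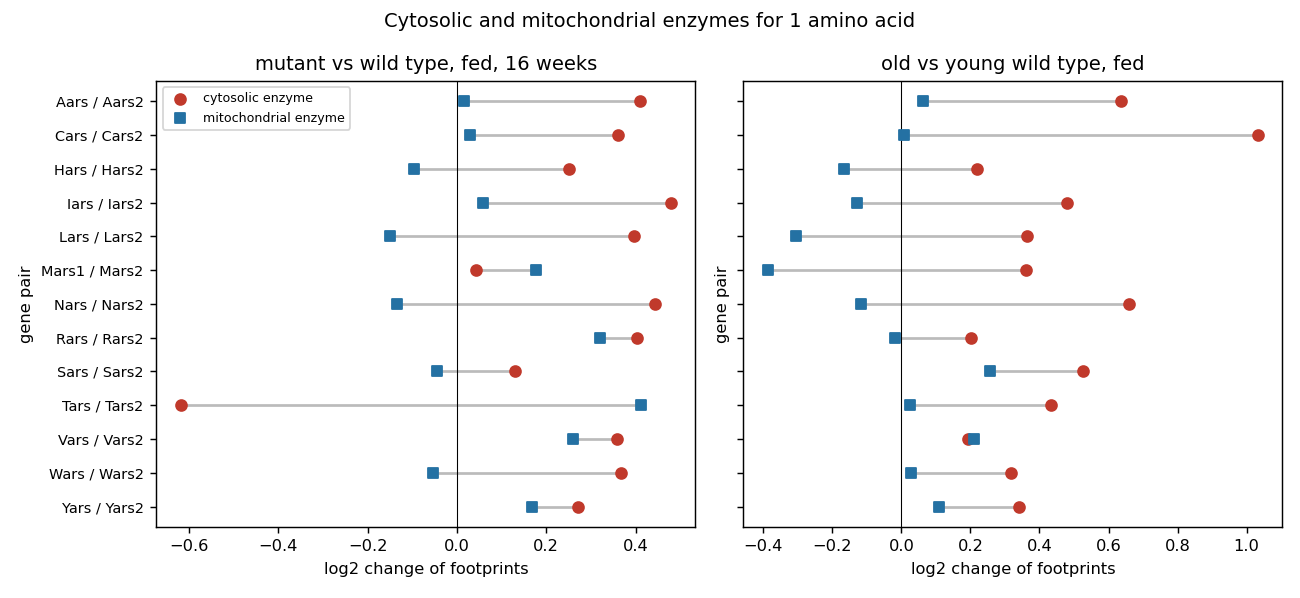
Log2 change of footprints (horizontal axis) for a cytosolic (red circle) and a mitochondrial (blue square) gene of each of 13 amino acids, in fed mutants against fed wild types (left) and old against young wild types (right). The circle lies right of the square in 11 and in 12 of the 13 pairs.

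Between fed mutants of 16 and 7 weeks, no synthetase gene passed the test. Here 0.434% of all genes were called, 0.246% upward and 0.188% downward. At an unadjusted p under 0.05 edgeR's test gave 1 cytosolic and 2 mitochondrial genes, against 1168 of all genes, and DESeq2 also called none of the 36. The median log2 change was 0.10 over cytosolic and -0.09 over mitochondrial genes. Fars2 had 7.36, 10.9, 9.52 and 7.82 CPM at 16 weeks, against 13.8, 13.1, 13.8 and 12.3 CPM at 7 weeks, a change of -0.57 ± 0.18 (adjusted p = 0.218). Its groups did not overlap, and a fit on these 8 libraries alone called it (adjusted p = 0.0456). Pars2, the mitochondrial proline enzyme, had 3.74, 2.42, 2.85 and 2.72 CPM at 16 weeks, against 1.46, 1.59, 2.65 and 1.61 CPM at 7 weeks, a change of 0.69 ± 0.47 (adjusted p = 0.714) in a gene with few counts. Every 16-week liver lay above every 7-week liver in 3 cytosolic genes and 1 mitochondrial gene (4.98% of all genes), and below in 0 and 2 (5.69% of all genes).

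Dietary restriction left most synthetase genes, like most of all genes tested, without a call in either genotype. In restricted against fed wild types 1 cytosolic gene rose and 2 mitochondrial genes fell, with 12.1% of all genes called, 5.44% upward and 6.71% downward. The median log2 change was 0.04 over the cytosolic and -0.27 over the mitochondrial genes, against 0.018 over all genes. Kars had 53.5, 51.8, 47.0 and 46.9 CPM in restricted wild types, against 40.5, 39.5, 37.4 and 31.1 CPM in fed wild types, and rose by 0.42 ± 0.12 (adjusted p = 0.0208). Every restricted liver lay above every fed one.

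Nars2, the mitochondrial asparagine enzyme, had 8.41, 9.09, 7.02 and 8.19 CPM in restricted wild types, against 12.7, 11, 11.1 and 13.3 CPM in fed wild types. Iars2, the mitochondrial isoleucine enzyme, had 30.1, 33.0, 31.5 and 24.7 CPM in restricted wild types, against 42.9, 37.5, 44.8 and 37.1 CPM in fed wild types. In both genes the groups were apart. The log2 changes were -0.56 ± 0.16 (adjusted p = 0.0198) for Nars2 and -0.44 ± 0.12 (adjusted p = 0.0125) for Iars2. Mars2, the mitochondrial methionine enzyme, had 5.99, 3.14, 3.98 and 13 CPM in restricted wild types, against 3.84, 3.43, 4.44 and 3.97 CPM in fed wild types, and its change of 0.72 ± 0.34 did not pass (adjusted p = 0.175). Its high mean came from replicate 4.

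Each of the 3 calls was lost in some of the fits that left out 1 library. Over these fits the log2 change was 0.349 to 0.488 for Kars, -0.495 to -0.33 for Iars2 and -0.61 to -0.451 for Nars2. Kars lost its call without fed wild-type replicate 3 or 4, Iars2 without fed replicate 3 or restricted replicate 4, and Nars2 without fed replicate 1 or 4 or restricted replicate 3 or 4 (adjusted p 0.0503 to 0.085). The mitochondrial median ranged from -0.30 to -0.13 over the fits without 1 library, and a fit on the 8 libraries compared called none of the 3. Every restricted liver lay above every fed one in 2 cytosolic and 0 mitochondrial genes (6.35% of all genes), and below in 0 and 3 (8.25% of all genes). Genes of ribosomal proteins, named by the symbols Rpl and Rps, had 62 of 81 rises and a median of 1.18 in the same comparison. Albumin took 16.4 ± 1.84% of the counts in restricted and 9.92 ± 0.657% in fed wild types (SD, n = 4 each). Summed markers of cell types also stood apart: hepatocyte markers at 172200 to 240200 CPM in restricted wild types, against 143100 to 154400 CPM in fed wild types, stellate cell markers at 231.7 to 415.1 CPM, against 148.9 to 202.2 CPM, and macrophage markers at 262.7 to 391.5 CPM, against 214.1 to 244.3 CPM. The hepatocyte sum is weighted by albumin, and singly 4 of the 7 hepatocyte markers had changes above 0 and 3 below, with 1 called, upward. Of the 7 stellate cell markers, 5 had changes above 0 and 2 below, with 2 called, upward. None of the summed markers was at 0, and their part in the synthetase levels was not tested.

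In restricted against fed mutants 1 cytosolic and 1 mitochondrial gene fell, and 11.6% of all genes were called, 5.59% upward and 6.04% downward. The median log2 change was -0.03 over cytosolic and -0.27 over mitochondrial genes, against 0.002 over all genes. Wars had 13.1, 16.2, 18.3 and 22.0 CPM in restricted mutants, against 31.5, 21.0, 28.3 and 27.5 CPM in fed mutants. It fell by 0.64 on the log2 scale (SE 0.20, adjusted p = 0.0343), though restricted replicate 4 lay above fed replicate 2. Lars2, the mitochondrial leucine enzyme, had 4.63, 4.40, 4.93 and 5.83 CPM in restricted mutants, against 5.77, 9.86, 8.32 and 9.78 CPM in fed mutants. It fell by 0.78 (SE 0.23, adjusted p = 0.0302), with restricted replicate 4 just above fed replicate 1. Wars lost its call when fed replicate 1, 3 or 4 or restricted replicate 1 or 2 was left out, and Lars2 without fed replicate 2, 3 or 4 or restricted replicate 1, 2 or 3 (adjusted p 0.053 to 0.128). Neither was called with library size as the only scaling. Every restricted mutant lay above every fed mutant in none of the 36 genes (8.43% of all genes), and below in 1 cytosolic and 2 mitochondrial genes (9.03% of all genes). Hepatocyte markers summed to 158200 to 196900 CPM in restricted mutants, against 104400 to 139000 CPM in fed mutants, and stellate cell markers to 344.6 to 440.1 CPM, against 256.5 to 332 CPM. The hepatocyte sum is weighted by albumin, which took 15.5 ± 1.59% of the counts in restricted and 8.89 ± 0.701% in fed mutants (SD, n = 4 each). Singly, 3 of the 7 hepatocyte markers had changes above 0 and 4 below, with 2 called up, 2 called down and a median of -0.013. Of the 7 stellate cell markers, 4 had changes above 0 and 3 below, with 1 called, upward. The macrophage sums of restricted and fed mutants overlapped, and the part of these markers in the synthetase levels was not tested.

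Under restriction the share of synthetase genes called between the genotypes, 7 of 36, was near that of all genes. Restricted mutants against restricted wild types gave 4 rises and 1 fall of 20 cytosolic genes and 1 rise and 1 fall of 16 mitochondrial genes, with 18.2% of all genes called, 9.38% upward and 8.85% downward. Cytosolic changes were above 0 in 17 of 20 genes, with a median of 0.21, and mitochondrial ones in 7 of 16, with a median of -0.04. The median over all genes was -0.006. A fit on these 8 libraries alone called none of the 20 cytosolic genes, and DESeq2 called 8, against 5 here.

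Eprs had 265, 197, 196 and 203 CPM in restricted mutants, against 158, 157, 133 and 111 CPM in restricted wild types. Lars had 43.1, 45.3, 42.3 and 44.9 CPM in restricted mutants, against 35.1, 28.3, 27.1 and 29.7 CPM in restricted wild types. Neither overlapped, and the changes were 0.62 ± 0.12 for Eprs (adjusted p = 0.000688) and 0.55 ± 0.11 for Lars (adjusted p = 0.000876). Vars, the valine enzyme, had 41.5, 42.0, 35.5 and 41.0 CPM in restricted mutants, against 34.1, 21.7, 27.3 and 19.6 CPM in restricted wild types, and rose by 0.64 ± 0.17 (adjusted p = 0.00957). Qars, the glutamine enzyme of the complex, had 58.6, 48.3, 46.8 and 56.0 CPM in restricted mutants, against 38.8, 41.9, 39.8 and 24.7 CPM in restricted wild types, and rose by 0.53 ± 0.18 (adjusted p = 0.0434). Qars lost its call in 6 of the 8 fits that left out 1 library, all but those without restricted mutant replicate 3 or restricted wild-type replicate 2 (adjusted p 0.0525 to 0.154).

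Tars was again lower in mutants, at 72.0, 74.0, 69.5 and 59.0 CPM in restricted mutants, against 106, 118, 107 and 64.2 CPM in restricted wild types. Restricted wild-type replicate 4 fell within the mutant range, and the change was -0.53 ± 0.15 (adjusted p = 0.0123). Fars2 too was lower, at 8.27, 6.62, 6.53 and 4.51 CPM in restricted mutants, against 12.8, 15.5, 9.45 and 10.9 CPM in restricted wild types, with no overlap and a change of -0.90 ± 0.18 (adjusted p = 0.0012). Iars2 had 48.5, 46.3, 45.5 and 55.0 CPM in restricted mutants, against 30.1, 33.0, 31.5 and 24.7 CPM in restricted wild types. It rose by 0.71 ± 0.12 (adjusted p = 0.000118), the smallest adjusted p of the 36 genes in this comparison, and it and Fars2 passed in all 15 alternative fits. Every restricted mutant lay above every restricted wild type in 4 cytosolic genes and 1 mitochondrial gene (8.31% of all genes), and below in 0 and 1 (6.87% of all genes). Macrophage markers summed to 412.4 to 534.1 CPM in restricted mutants, against 262.7 to 391.5 CPM in restricted wild types, while the stellate cell and hepatocyte sums overlapped. Their part in the synthetase levels was not tested.

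No synthetase gene passed the test of whether the response to restriction differed between genotypes, where 0.803% of all genes were called, 0.516% upward and 0.287% downward. At an unadjusted p under 0.05 edgeR gave 1 cytosolic and 1 mitochondrial gene. Iars2 came nearest, with a mutant response 0.65 ± 0.16 above the wild-type response on the log2 scale (adjusted p = 0.0555). Its response was 0.21 ± 0.12 in mutants (adjusted p = 0.272) and -0.44 ± 0.12 in wild types. DESeq2 called it at an adjusted p of 0.00854, as did edgeR's test without restricted wild-type replicate 2, at 0.0364. Yars, the tyrosine enzyme, had 22.1, 24.7, 21.7 and 16.2 CPM in restricted mutants, against 25.4, 25.8, 28.8 and 24.6 CPM in fed mutants. In wild types it had 21.8, 23.6, 23.5 and 28.6 CPM under restriction, against 21.4, 22.5, 20.1 and 22.9 CPM after feeding, and the difference of the responses was -0.47 ± 0.19 (adjusted p = 0.265).

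Scaffolds of the complex and the tRNA export receptor gave 1 call. Of Aimp1, Aimp2, Eef1e1 and Xpot, the tRNA exportin, none was called by edgeR in fed mutants or old wild types (1 each at an unadjusted p under 0.05), with log2 changes from -0.19 to 0.57 in fed mutants against fed wild types. In restricted against fed mutants Aimp1 rose by 0.42 ± 0.14 (adjusted p = 0.0472), at 28.9 ± 3.96 CPM in restricted and 21.5 ± 3.00 CPM in fed mutants (SD, n = 4 each). That comparison called 11.6% of all genes. Of 5 editing and proofreading factors, which remove wrongly charged amino acids, Aarsd1 was called in that comparison, with a change of -1.17 ± 0.39 (adjusted p = 0.0485) at 0.722 ± 0.284 CPM in restricted and 1.60 ± 0.222 CPM in fed mutants.

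Partners of mitochondrial tRNA charging and decoding, a list of 12, had no edgeR call in fed mutants against fed wild types, with 1 at an unadjusted p under 0.05, and 2 falls in old against young wild types. Hsd17b10, a subunit of mitochondrial RNase P, was at 100.3 ± 14.1 CPM in old and 180.4 ± 41.1 CPM in young wild types (SD, n = 4 each), a change of -0.85 ± 0.15 (adjusted p = 0.000616). Gfm1, a mitochondrial elongation factor, was at 70.3 ± 5.13 CPM in old and 90.3 ± 5.03 CPM in young wild types, a change of -0.36 ± 0.10 (adjusted p = 0.0266). In restricted wild types Gatb, a subunit of the amidotransferase that completes glutaminyl-tRNA, fell by 0.66 against fed wild types (SE 0.12, adjusted p = 0.000769). Hsd17b10 fell by 0.51 (SE 0.15, adjusted p = 0.0251), and Trmt10c, another subunit of RNase P, rose by 0.90 ± 0.24 (adjusted p = 0.0158) with overlapping groups. Restricted against fed mutants had 1 rise, Gfm1 by 0.37 ± 0.10 (adjusted p = 0.0193). Restricted mutants had 3 rises against restricted wild types, Hsd17b10 by 0.79 ± 0.15, Tufm by 0.37 ± 0.11 and Gatb by 0.36 ± 0.12 (adjusted p 0.000571, 0.0231 and 0.0431). Among all genes, 10.7% were called in fed mutants against fed wild types and 9.34% in old against young wild types. The share was 12.1% for restriction in wild types, 11.6% in mutants and 18.2% between the genotypes under restriction.

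Neither Eif2ak4 nor Atf4 was called in any of the 7 comparisons. Atf4 had 10.8 ± 1.27 CPM in fed mutants, 10.9 ± 3.88 CPM in old wild types and 9.98 ± 1.05 CPM in fed wild types (SD, n = 4 each). Atf5, a related factor, was at 4.18 ± 1.59 CPM in fed mutants and 11.6 ± 1.63 CPM in fed wild types, a change of -1.46 ± 0.31 (adjusted p = 0.00251). These 3 genes come from a list for control of the GCN2 and ATF4 pathway, with 12 tested. In that list 1 gene rose in restricted against fed wild types and 1 in restricted against fed mutants. Restricted mutants against restricted wild types had 1 rise and 2 falls in it. Of 26 other reported ATF4 targets 21 were tested. Asns, asparagine synthetase, rose by 3.49 ± 0.55 in fed mutants against fed wild types (adjusted p = 0.000107), at 1.31 ± 0.621 CPM against 0.100 ± 0.0836 CPM, and Vldlr and Fgf21 fell. In old against young wild types 4 rose and Fgf21 fell. The rises were Asns, Psat1 of serine synthesis at 1.53 ± 0.41, Aldh18a1 of proline synthesis at 1.68 ± 0.39, and Cbs of transsulfuration at 1.07 ± 0.13. Cbs had 505.7 ± 54.2 CPM in old and 240.5 ± 24.3 CPM in young wild types (adjusted p = 3.04e-06). Of the same 21 targets, 1 rose and 3 fell in restricted against fed wild types, and 3 rose and 1 fell in restricted against fed mutants. Restricted mutants against restricted wild types gave 6 rises and 2 falls, and 4 genes, Psat1, Cth, Vldlr and Gpt2, had a higher response to restriction in mutants than in wild types. The list's medians were 0.12 in fed mutants against fed wild types, 0.62 in restricted mutants against restricted wild types and 0.58 in old against young wild types. For scale, the share of all genes called was 10.7% in fed mutants and 9.34% in old wild types, each against young fed wild types. It was 12.1% and 11.6% for restriction in wild types and mutants, 18.2% between genotypes under restriction and 0.803% for the difference of responses.

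Other parts of the translation machinery gave a scale for these changes. Initiation and elongation factors, by the symbols Eif and Eef, had 7 rises of 73 and a median of 0.14 in fed mutants against fed wild types, and 5 of 73 and 0.12 in old against young wild types. Among all genes, 5.69% rose in the mutants and 4.75% in old liver. Ribosomal protein genes had 1 rise of 81 and a median of 0.045 in the mutants and no call in old liver, with 2 at an unadjusted p under 0.05. Mitochondrial ribosomal protein genes, by the symbols Mrpl and Mrps, had 1 rise and 2 falls of 78 in the mutants, with a median of 0.004, and a median of -0.10 in old liver.

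Between livers of 1 group the synthetase genes varied together only weakly. Deviations of log2 CPM from the group mean correlated at a mean Pearson r of 0.148 over pairs of cytosolic genes in 24 libraries, with single pairs from -0.583 to 0.73. The mean was 0.084 over pairs of mitochondrial genes, 0.099 between the compartments and 0.001 over all genes tested. Dars with Eprs gave the highest value. Iars had the highest mean with its own compartment, at 0.345, and Mars2 the lowest, at -0.091. These points share libraries and scaling factors, and the values are a description.

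Some members lie close to other genes, and whether reads were counted by strand is not given in the sources used here. By RefSeq on GRCm38.p6, Hars and Hars2 lie head to head on chromosome 18 and overlap by 4 bases, and neither was called in any comparison. Aars overlaps Ddx19b by 3974 bases, Farsb overlaps Sgpp2 by 2332, and Mars1 overlaps Ddit3 by 71. Fars2 spans chr13:36117428-36537595, by far the longest of the 36 genes at 420168 bases with its introns, and shares 20270 of them with the gene model Gm40912. Eprs and Iars2 are neighbours on chromosome 1, 31997 bases apart, and both were higher in restricted mutants than in restricted wild types. Farsa lies at chr8:84856969-84869257, Tars at chr15:11383663-11399658 and Cars at chr7:143557230-143600090.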

How the data were processed

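Ribosome profiling of 24 livers in 6 groups of 4 was analysed from the gene table the authors deposited, which holds raw counts per gene, whole and not normalized as its values show. The build GRCm38.p6 and the tools cutadapt 3.4, Trimmomatic 0.39, Bowtie2 2.4.2, STAR (2.7.0f, 2.7.8a), Subread 1.6.4 and featureCounts come from the submitters' processing notes. What each tool did, the annotation, strand use and the handling of multimapping reads: not given in the sources used here. A deposited table of open reading frames names transcripts and no gene and was not used, and mRNA libraries of these livers were not used here.

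The main test was that of edgeR 4.0.16 in R 4.3.3: filterByExpr over the 6 groups (12211 of 22429 genes), TMM scaling and a robust quasi-likelihood fit over all 24 libraries with 1 term per group (18 residual degrees of freedom, biological coefficient of variation 24.15%). Each of 7 contrasts was tested 2-sided, with Benjamini-Hochberg adjustment over all genes and a threshold of 0.05. The SE is the log2 change divided by the square root of F. CPM used effective library sizes, and log2 CPM a prior count of 2. Within a group, libraries differed by more than counting error (chi-square per degree of freedom at least 14.45), so none was taken as a second deposit of another. Restricted wild types differed most among themselves, at 78.19 to 175.8 per pair, against at most 88.89 in the other groups. p-values weigh a difference between groups against the spread between livers within groups, pooled over the 6 groups and moderated across genes. They make no allowance for a group whose livers vary more than the rest.

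Members and lists were chosen with earlier results of these data known. Values per library are given for members with an adjusted p under 0.05, at most 8 per contrast, and for the 2 largest changes per contrast, with Kars and Aars in fed mutants against fed wild types added beyond that limit; of related lists, for at most 4 called members per contrast. Of the 36 members, 35 were matched to RefSeq by symbol and 1 by an older symbol. Levels of different enzymes were not compared, since coding lengths were not used here. Alternatives were DESeq2 1.42.0, other scalings, no filter, only the groups compared, a replicate block and each library left out. The fit was tested on simulated data for fed mutants against fed wild types, with 50 genes changed at each size. It called 4% of the genes changed 1.3-fold, 36% at 1.6-fold, 78% at 2-fold and 96% at 4-fold, with 4 false calls. A small change can therefore go without a call. The changed genes were drawn above a floor in level, so recovery of genes as low as Pars2 or Wars2 was not tested. One further gene is not reported here.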

Additional observations from a re-analysis of the deposited data

Results flagged for a closer look

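Within each group of 4 livers, 1 value can lie apart from the other 3. Of 144 such sets of values checked, 8 did so by Dixon's test at the 95% level, and chance alone marks about 1 in 20.

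Eprs had 264.7 CPM in restricted mutant replicate 1, and the next value was 203.1 CPM. The call of Eprs against restricted wild types held without that library. Vars had 35.5 CPM in restricted mutant replicate 3, below the next value of 41.04 CPM. Lars2 had 2.85 CPM in restricted wild-type replicate 4, against 7.82 CPM for the next. Nars2 had 8.119 CPM in fed mutant replicate 1, below the next at 11.6 CPM. In 7-week mutants, Mars1 had 60.4 CPM in replicate 2 (next 54.41), Pars2 had 2.645 CPM in replicate 3 (next 1.606), and Yars had 21.55 CPM in replicate 4 (next 25.43). The summed cytosolic level of fed mutant replicate 2 was 1306 CPM, below the next at 1394 CPM and still above every fed wild type.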

How the results depend on the processing

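Over 70 results and 1106 alternative values, 110 lost a call, 3 gained one and 81 moved a count or a median beyond the limits set. No change of direction was seen for the members followed singly, those called or among the 2 largest changes of a comparison. Other members did change sign. By library size alone, 9 mitochondrial genes lay above 0 in fed mutants of 16 against 7 weeks (3 in the reported fit). In restricted against fed mutants 12 cytosolic genes did so (7). Of 226 alternative medians, 15 changed sign, in 4 medians near 0: mitochondrial ones in old against young wild types, in 16 against 7 weeks and between the genotypes under restriction, and the cytosolic one in restricted against fed mutants. In fed mutants against fed wild types the cytosolic calls were 3 without the filter (9 in the reported fit) and 2 to 8 with 1 library left out, and mitochondrial calls were 2 in a fit of only the groups compared (1). With library size as the only scaling the medians there were 0.455 (cytosolic) and 0.147 (mitochondrial), and leaving out 1 library gave 0.3 to 0.413 for the cytosolic median; the median of all genes was 0.11 under that scaling. In old against young wild types the cytosolic calls were 4 without the filter (8) and 4 to 6 with 1 library left out. In fed mutants of 16 against 7 weeks the medians were 0.206 and 0.003 by library size alone, the cytosolic median was 0.032 to 0.121 with 1 library left out, and 1 mitochondrial gene was called in the fit of only the groups compared (0).

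In restricted against fed wild types the cytosolic calls were 0 without the filter and 0 in the fit of only the groups compared (1), and 0 to 2 with 1 library left out. The mitochondrial calls there were 0 by library size alone and 0 in the fit of only the groups compared (2), and 0 to 4 with 1 library left out, with a median of -0.298 to -0.126. In restricted against fed mutants library size alone gave 0 cytosolic calls (1), a cytosolic median of 0.033 and 0 mitochondrial calls (1). The fit of only the groups compared gave 2 mitochondrial calls, and leaving out 1 library gave 0 to 2 in either compartment. In restricted mutants against restricted wild types the cytosolic calls were 8 by library size alone, 8 by DESeq2 and 0 in the fit of only the groups compared (5). The cytosolic median was 0.314 by library size alone, and the mitochondrial one -0.227 to 0.113 with 1 library left out. For the difference of responses, DESeq2 gave 1 mitochondrial call (0), leaving out 1 library gave 0 to 1, and the cytosolic median was -0.192 to -0.034. The cause of these shifts was not tested.

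Replicate numbers are shared between groups, but same-numbered libraries did not deviate together (mean r 0.007 over 60 pairs, against -0.002 over 180 other pairs), and 7 of 24 libraries were closest to their own number. With a replicate block the cytosolic calls in fed mutants against fed wild types were 8, with Aars lost (adjusted p = 0.0572). In old wild types they were 8, with Mars1 lost (0.0646) and Tars gained (0.049), and under restriction between the genotypes 5, with Qars lost (0.0575) and Dars gained (0.0365). Counts over all genes moved by over 1.5 times in the fit of only the groups compared: 2138 in fed mutants against fed wild types (1310), 436 for 16 against 7 weeks (53), 658 for restriction in wild types (1483) and 769 between the genotypes under restriction (2227). DESeq2 gave 167 for 16 against 7 weeks and 279 for the difference of responses (98), and library size alone 99 for 16 against 7 weeks. Leaving out 1 library gave 806 to 1090 in fed mutants against fed wild types, 755 to 1034 in old wild types (1141), 17 to 43 for 16 against 7 weeks, 941 to 1864 and 934 to 1463 for restriction in wild types and mutants (1483 and 1420), and 61 to 205 for the difference of responses, so the shares of all genes called move with them. Mitochondrial genes with few counts, such as Pars2 and Mars2, had the widest standard errors.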
